A study of Homo sapiens with 8 samples.

Results

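SGK1, SGK2, SGK3, AKT1, AKT2, PDPK1 and NEDD4L were followed in HCT116 cells treated with the small molecule P2. These 7 genes, of 16922 named genes on the array, are the serum and glucocorticoid regulated kinases, the related AKT kinases, the kinase that switches both on and a ubiquitin ligase that SGK1 phosphorylates. SGK1 was chosen by its measured value, a lower level after P2 in both genotypes of these same arrays, and the other 6 were taken as its relatives and partners. All probes annotated to these symbols, or to the older names of SGK1 and SGK3, were included, which gave 15 probes. HCT116 is an established human colon cancer line, and RNA from the whole culture was hybridized to Illumina expression chips. The submitters' extraction note mentions frozen tissue, although the sample titles name this cell line. The 4 groups of 2 arrays were p53-/- cells given P2 at 25 µM, p53-/- cells left untreated, p53+/+ cells given P2 at 25 µM and p53+/+ cells left untreated. The labels name no solvent control and no treatment time, so an effect of P2 and one of its solvent or handling cannot be told apart. They do not say whether p53-/- is 1 clone, or whether the 2 arrays of a group came from separate cultures. The p-values therefore cover only the scatter of these arrays, part or all of which may be technical.

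SGK1 and AKT are kinases of the AGC family that act below phosphoinositide 3-kinase (PI3K). PI3K makes a membrane lipid that lets PDPK1 (also called PDK1) and the mTORC2 complex phosphorylate and switch on AKT and SGK. AKT is regulated mainly by phosphorylation, whereas SGK1 is also strongly regulated through its transcript, which is induced by serum, glucocorticoids and osmotic stress, and through rapid turnover of the protein. In salt-absorbing epithelia, including the colon, SGK1 phosphorylates NEDD4L and so keeps the epithelial sodium channel at the cell surface.

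RefSeq lists 3 start windows for SGK1, all on the minus strand of chromosome 6 in GRCh38.p14. They are shown because SGK1 is the gene of the set with the largest change and because its starts differ widely in composition. Each line gives the 250 bases before a start, 5′ to 3′. Capitals mark the GC box GGGCGG or its complement CCGCCC.
SGK1 chr6:134318113-134318362: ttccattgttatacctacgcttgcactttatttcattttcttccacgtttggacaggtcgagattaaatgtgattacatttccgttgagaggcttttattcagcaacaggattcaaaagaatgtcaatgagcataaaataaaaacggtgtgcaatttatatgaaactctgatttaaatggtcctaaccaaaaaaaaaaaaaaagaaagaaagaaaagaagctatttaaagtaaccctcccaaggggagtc
SGK1 chr6:134177862-134178111: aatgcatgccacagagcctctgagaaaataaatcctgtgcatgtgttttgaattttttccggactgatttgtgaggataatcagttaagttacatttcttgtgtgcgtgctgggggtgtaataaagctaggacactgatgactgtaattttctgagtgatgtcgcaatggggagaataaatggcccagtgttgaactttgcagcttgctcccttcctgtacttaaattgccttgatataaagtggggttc
SGK1 chr6:134174867-134175116: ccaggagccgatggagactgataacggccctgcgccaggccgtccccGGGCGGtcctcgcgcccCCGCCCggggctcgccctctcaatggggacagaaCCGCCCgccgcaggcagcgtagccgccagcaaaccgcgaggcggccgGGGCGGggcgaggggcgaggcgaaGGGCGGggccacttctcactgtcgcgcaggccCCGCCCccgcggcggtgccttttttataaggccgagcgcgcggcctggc
The first window held 33.6% G and C bases and the second held 41.6%, with 0 GC boxes in each. The third window held 76% G and C bases and 6 GC boxes. Among the 250-base windows of all genes in the RefSeq table, 42.6% of 35116 held at least 1 GC box, searched on both strands. Among its kinase relatives the AKT1 windows held 7 and 1 GC boxes, the AKT2 windows 4 and 1, and the PDPK1 window 7. The 5 NEDD4L windows held 0. In the 3 SGK1 windows no match was found on either strand to the palindromic glucocorticoid response element, the AP-1 site TGANTCA, the TEAD site GGAATG or the E-box CACGTG. Those letters were present in 0.00285%, 6.57%, 11.9% and 6.34% of all windows. These are descriptions of the letters in these windows. Which start gave the transcripts that the SGK1 probe measured was not analysed here.

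The arrays held 24526 probes, of which 52.1% to 57.1% were detected, and the 2 arrays of a group correlated with r = 0.989 in untreated p53-/- cells and 0.995 in each of the other 3 groups. A total of 14574 probes were detected (detection p under 0.05) on at least 2 arrays and were tested. Those of them with 1 gene symbol covered 10932 genes. Untreated p53-/- replicate 1 stood apart, with 215 probes at least 1 log2 unit lower than on replicate 2 and 0 at least 1 unit higher. None of the 15 probes of the set was among them. Of 12 markers of colon epithelium, 5 (CDH1, CDX2, EPCAM, KRT19 and KRT8) were detected on all 8 arrays and 5 (CDX1, CEACAM6, KRT20, LGALS4 and VIL1) on none. Their summed normalized intensity, on the linear scale, was 13420 to 14740 in P2-treated and 11410 to 12460 in untreated p53-/- cells, and 14200 to 15510 in P2-treated and 12330 to 13270 in untreated p53+/+ cells. It was thus higher with P2 in both genotypes, and its part in the results below was not tested. The fibroblast, leukocyte, and endothelial and erythroid lists had 2 (COL1A1 and PDGFRA), 2 (CD68 and LYZ) and 1 (PECAM1) members detected on all arrays. The targeted gene of the p53-/- cells is not analysed here.

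SGK1 was about 4 times lower in P2-treated than in untreated cells of both genotypes. Its single probe (ILMN_1702487) was detected on all 8 arrays. In p53-/- cells its scanner intensity was 155.5 and 144.5 on the P2 arrays, against 677.1 and 372.4 on the untreated arrays. In p53+/+ cells it was 121.1 and 123.8 on the P2 arrays, against 512.3 and 473.5 on the untreated arrays. On each genotype's P2 arrays SGK1 was thus below both untreated arrays, with a wide gap between the groups. After normalization its log2 intensity was 6.56 and 7.02 with P2 and 8.92 and 8.67 without P2 in p53-/- cells. The p53+/+ arrays read 6.65 and 6.96 with P2 and 8.81 and 8.88 without P2. The difference was -2.01 ± 0.17 log2 units (SE, n = 2 per group, 95% confidence interval -2.40 to -1.62), or 4.02-fold, in p53-/- cells and -2.04 ± 0.17 (interval -2.43 to -1.65), or 4.12-fold, in p53+/+ cells. Ranked among 10932 genes with 1 probe each, SGK1 had the 11th lowest difference in p53-/- cells and the 9th lowest in p53+/+ cells. SGK1 was chosen for this difference, so these are descriptions with no test. In RNA of a whole culture, fewer cells that express SGK1 and less SGK1 RNA per cell cannot be told apart.

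The P2 difference of SGK1 in p53-/- cells minus that in p53+/+ cells was 0.04 ± 0.24 log2 units, with a 95% interval of -0.52 to 0.59. The choice of SGK1 used the values of both genotypes, so this too is a description with no test. The level of SGK1 was close in both genotypes, which is again a description with no test. The p53-/- minus p53+/+ difference was -0.02 (interval -0.41 to 0.37) with P2 and -0.05 (interval -0.44 to 0.34) without it. Ordered by mean log2 intensity, the groups ran 6.79 (p53-/-, P2), 6.80 (p53+/+, P2), 8.80 (p53-/-, untreated) and 8.85 (p53+/+, untreated). The first pair of groups and the last pair each overlapped, and the step between them was the only one larger than the spread of arrays. Leaving out any 1 array kept the P2 difference between -2.24 and -1.78 in p53-/- cells and between -2.21 and -1.89 in p53+/+ cells. Without untreated p53-/- replicate 1, the array that stood apart, it was -1.86 in p53-/- cells.

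**Figure D1:**
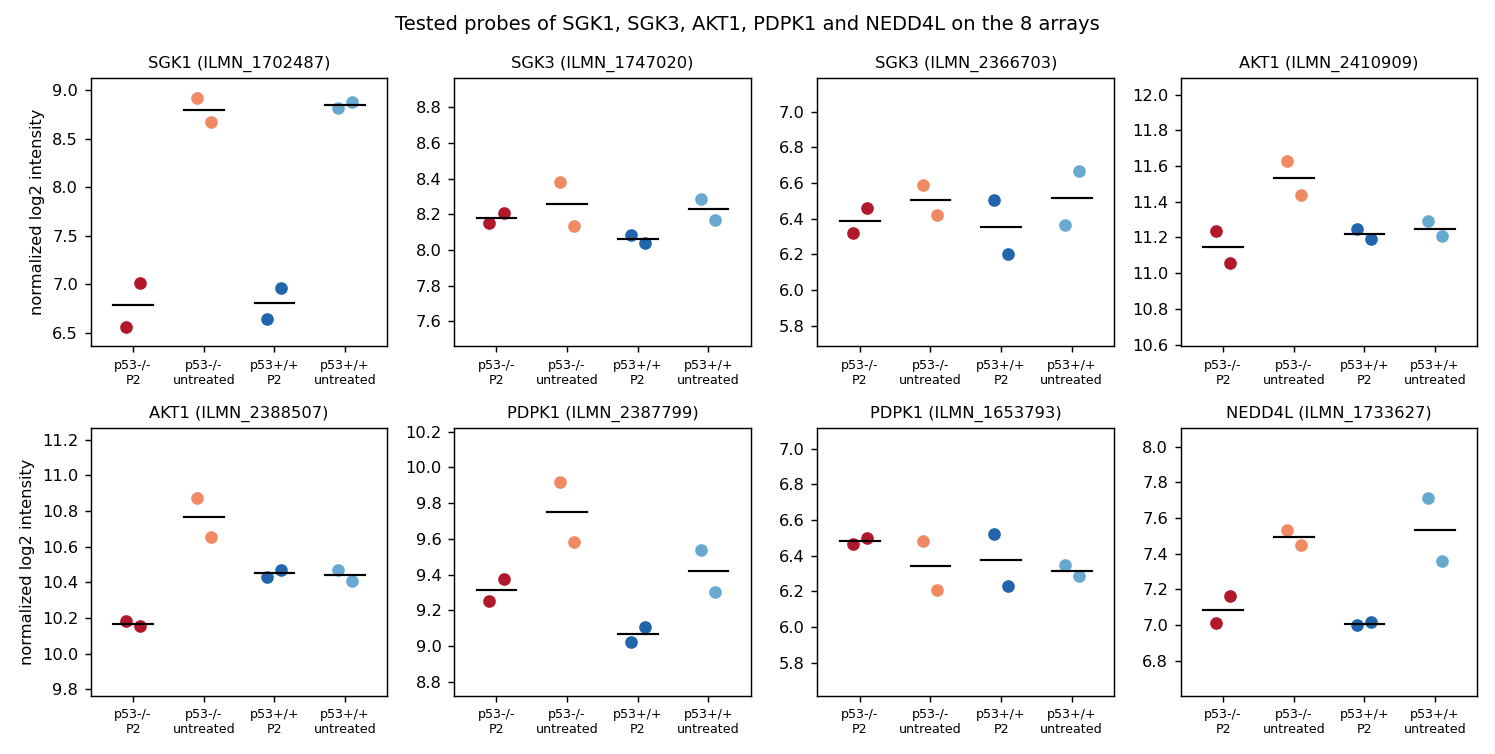
Normalized log2 intensity (y axis, with its own range in each panel) of the 8 tested probes of the set on each array, by group along the x axis. Points are arrays and lines are means of 2 arrays. SGK1 lies at 6.56 to 7.02 on the 4 P2 arrays and at 8.67 to 8.92 on the 4 untreated arrays, while the other panels span far smaller differences.

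Of the closest relatives of SGK1, SGK2 was not detected and SGK3 did not pass the test. SGK2, a paralog best known from liver and kidney, has 3 probes, and none was detected on any array (log2 intensity 4.34 to 4.66). Whether its transcript changed was therefore not measurable. SGK3, a paralog that carries a lipid-binding domain and acts on endosomes, has 1 probe detected on no array and 2 probes detected on all 8. The brighter of these, ILMN_1747020, read 8.15 and 8.21 with P2, against 8.38 and 8.13 without, in p53-/- cells, so the groups overlapped. On the p53+/+ arrays it read 8.08 and 8.04 with P2, against 8.29 and 8.17 without, which did not overlap. Its differences were -0.08 ± 0.12 in p53-/- cells (interval -0.34 to 0.19, adjusted p 0.66), compared with -0.17 ± 0.12 in p53+/+ cells (interval -0.43 to 0.10, adjusted p 0.406). The second SGK3 probe, ILMN_2366703, ranged from 6.20 to 6.67 over the 8 arrays with overlapping groups in both genotypes. It gave -0.12 ± 0.15 in p53-/- cells (adjusted p 0.596), compared with -0.16 ± 0.15 in p53+/+ cells (adjusted p 0.525). The SGK3 intervals reached no lower than -0.50 log2 units on either probe and in either genotype, and so did not include a change as large as that of SGK1.

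AKT1, a kinase that shares many substrates with SGK1, fell after P2 in p53-/- cells on both of its tested probes. Probe ILMN_2388507 read 10.18 and 10.16 with P2, against 10.87 and 10.66 without, in p53-/- cells. The p53+/+ arrays read 10.43 and 10.47 with P2, against 10.47 and 10.41 without. The p53-/- groups were thus clearly apart while the p53+/+ groups overlapped. The difference was -0.60 ± 0.11 in p53-/- cells (1.51-fold, adjusted p 0.00561), compared with 0.01 ± 0.11 in p53+/+ cells (interval -0.24 to 0.26, adjusted p 0.963). Probe ILMN_2410909 read 11.23 and 11.06 with P2, against 11.63 and 11.44 without, in p53-/- cells, and between 11.19 and 11.29 on the 4 p53+/+ arrays. Its difference was -0.39 ± 0.12 in p53-/- cells (adjusted p 0.0394), compared with -0.03 ± 0.12 in p53+/+ cells (adjusted p 0.903). The call on this second probe was lost without any 1 array other than untreated p53-/- replicate 2 (adjusted p 0.0571 to 0.19), whereas the call on ILMN_2388507 held without each array in turn. The third AKT1 probe was detected on no array.

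The AKT1 response to P2 was not shown to differ between the genotypes. On ILMN_2388507 the p53-/- difference minus the p53+/+ difference was -0.61 ± 0.16 (interval -0.96 to -0.25), with an unadjusted p of 0.00367 and an adjusted p of 0.131 over all probes. It passed in 1 of the 8 repeats that left out an array, the one without untreated p53-/- replicate 2 (-0.72, adjusted p 0.0342). On ILMN_2410909 it was -0.36 ± 0.17 (adjusted p 0.327). Part of the contrast lay in the untreated cells, where AKT1 read higher in p53-/- than in p53+/+ cells on both arrays, by 0.33 ± 0.11 (adjusted p 0.156) and 0.28 ± 0.12 (adjusted p 0.222) on the 2 probes. With P2 the p53-/- minus p53+/+ difference had the other sign on ILMN_2388507, at -0.28 ± 0.11 (adjusted p 0.311). Neither genotype difference passed the test.

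AKT2, the isoform best known for insulin-stimulated glucose uptake, has a single probe, ILMN_1743347, at the edge of detection. It read 4.71 and 4.89 with P2, against 4.43 and 4.41 without, in p53-/- cells, and 4.61 and 4.49 with P2, against 4.37 and 4.44 without, in p53+/+ cells. The P2 arrays read higher in both genotypes, but the probe was detected on only 1 of the 8 arrays, P2-treated p53-/- replicate 2 (detection p 0.029). It was not tested and no fold is given.

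PDPK1, the kinase that phosphorylates the activation loop of SGK and AKT, was lower after P2 on the brighter of its 2 tested probes. ILMN_2387799 read 9.25 and 9.37 with P2, against 9.92 and 9.58 without, in p53-/- cells. In p53+/+ cells it read 9.02 and 9.11 with P2, against 9.54 and 9.30 without. The groups did not overlap in either genotype. The difference was -0.44 ± 0.14 in p53-/- cells (1.36-fold, adjusted p 0.0476), which passed narrowly, and -0.36 ± 0.14 in p53+/+ cells (adjusted p 0.138), which did not pass. The dimmer probe, ILMN_1653793, did not show it: its arrays ranged from 6.21 to 6.52 with overlapping groups, and its differences were 0.14 ± 0.14 (adjusted p 0.497) in p53-/- cells and 0.06 ± 0.14 (adjusted p 0.818) in p53+/+ cells. The third PDPK1 probe was detected on no array. The p53-/- call on ILMN_2387799 was lost without any 1 array other than untreated p53-/- replicate 2 (adjusted p 0.0551 to 0.248), and with the replicate number as a block (0.0585). The 2 tested PDPK1 probes thus disagree.

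NEDD4L, the ubiquitin ligase that removes the epithelial sodium channel from the membrane and is inhibited when SGK1 phosphorylates it, was lower after P2 in both genotypes and passed the test in p53+/+ cells. Its probe, ILMN_1733627, read 7.01 and 7.16 with P2, against 7.53 and 7.45 without, in p53-/- cells. In p53+/+ cells it read 6.997 and 7.015 with P2, against 7.71 and 7.36 without. All 4 P2 arrays lay below all 4 untreated arrays. The difference was -0.40 ± 0.13 in p53-/- cells (1.32-fold, adjusted p 0.0531), just short of the threshold of 0.05, and -0.53 ± 0.13 in p53+/+ cells (1.44-fold, adjusted p 0.0345). The 2 responses differed by 0.12 ± 0.19 (p53-/- minus p53+/+, interval -0.30 to 0.55, adjusted p 0.804). The p53+/+ call on NEDD4L was lost on leaving out either p53-/- P2 array (adjusted p 0.0503 without replicate 1 and 0.0524 without replicate 2), either p53+/+ P2 array (0.151 and 0.133) or untreated p53+/+ replicate 1 (0.197). With the replicate number as a block it had an adjusted p of 0.0502. The p53-/- value of NEDD4L, in turn, passed without untreated p53+/+ replicate 1 (adjusted p 0.0362) or replicate 2 (0.0368). It also passed without background correction or from the authors' log2 values (0.044 in each), with an offset of 50 (0.0433), with the stricter detection filter of 0.01 (0.0338) and with robust moderation on a variance trend (0.0452).

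**Figure D2:**
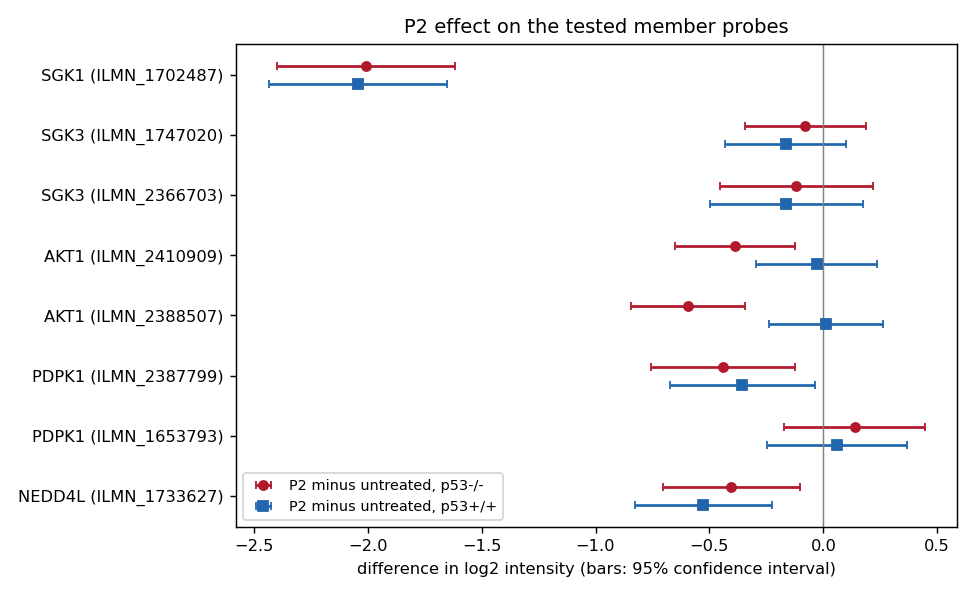
P2 minus untreated difference in log2 intensity (x axis) for the 8 tested probes of the set (y axis) in p53-/- cells (circles) and p53+/+ cells (squares). Bars are 95% confidence intervals from the fit to all 8 arrays. SGK1 lies near -2 in both genotypes, and every other point lies between -0.60 and 0.14.

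Counted over the set without SGK1, 7 probes of 4 genes were tested. In p53-/- cells 3 of these 7 probes fell after P2 (2 of AKT1 and 1 of PDPK1) and none rose, where 13.6% of all tested probes fell and 11.8% rose. In p53+/+ cells 1 of the 7 fell (NEDD4L) and none rose, where 6.29% of all tested probes fell and 5.71% rose. The genes share cells and arrays and were chosen with earlier results known, so the counts are read only as descriptions. None of the 7 probes differed in its P2 response between the genotypes, a comparison in which 0 of 14574 probes passed with limma (2383 at an unadjusted p under 0.05). Among the same 7 probes none differed between untreated p53-/- and p53+/+ cells, where 0.0686% of all tested probes passed (0.0274% higher and 0.0412% lower in p53-/- cells). None differed between P2-treated p53-/- and p53+/+ cells, where 0 of all tested probes passed (2011 at an unadjusted p under 0.05). The 7 probes not tested are the 3 of SGK2, the 1 of AKT2 and 1 each of SGK3, AKT1 and PDPK1. Of the 7 genes, 5 thus had a measurable probe.

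The 5 genes whose profile over the 8 arrays lay closest to that of SGK1 were SNTB1, TIPARP, SLC2A3, BMP4 and GLIS3. Likeness was the root mean square difference between profiles centred on their own mean, over 8 arrays and 10931 other genes, and was smallest for SNTB1, a syntrophin adaptor of the membrane cytoskeleton, at 0.181 log2 units. TIPARP, a mono-ADP-ribosyltransferase induced by the aryl hydrocarbon receptor, followed at 0.188. SLC2A3, a high-affinity glucose transporter, was at 0.190, the growth factor BMP4 at 0.192 and the zinc finger transcription factor GLIS3 at 0.206. Their P2 differences were -1.75, -1.93, -2.26, -1.83 and -2.15 in p53-/- cells, in that order of genes, and -1.91, -1.93, -2.25, -1.99 and -2.17 in p53+/+ cells. On the P2 arrays GLIS3 read 4.43 to 4.67, below the lowest level of any detected probe there, so its differences are not measured folds. None of the other 6 genes of the set was among these 5. SGK2 and AKT2 had no tested probe and were not compared, and the P2 differences of the others were far smaller. The order is a description of 4 groups that share arrays and carries no test.

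**Figure D3:**
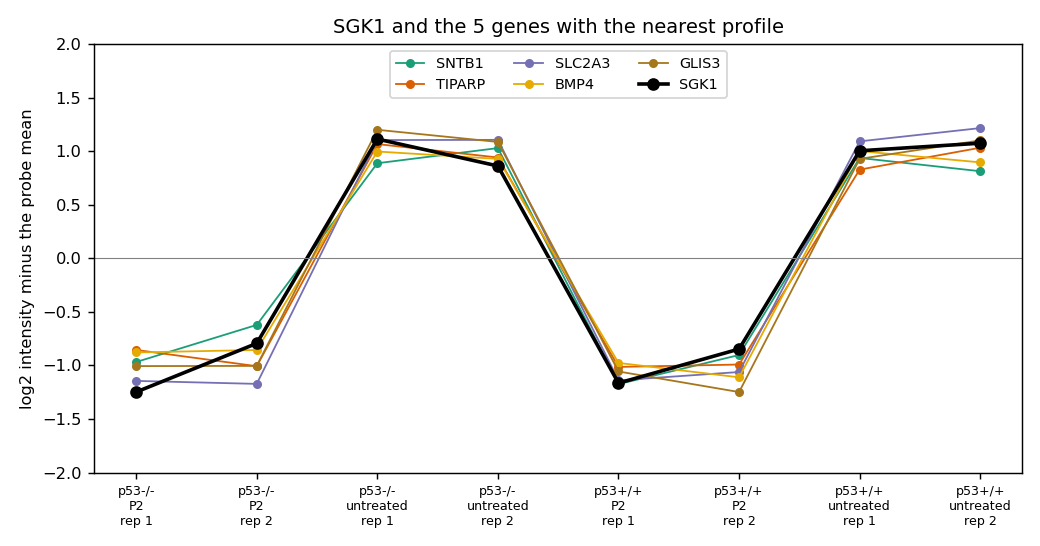
Log2 intensity minus the probe's mean (y axis) on each of the 8 arrays (x axis) for SGK1 (thick line) and the 5 genes with the nearest profile. All 6 lines lie below 0 on the 4 P2 arrays and above 0 on the 4 untreated arrays, and the lines join arrays only to help the eye.

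Upstream of these kinases, the PI3K subunits that changed were counted beside the share of all genes. Of 15 genes in the list, 7 were tested with 1 probe each. In p53-/- cells 1 rose and 2 fell, where 10.4% of all genes rose and 14.5% fell, with a median difference of -0.09 against -0.06 over all genes. In p53+/+ cells 1 rose and 0 fell, where 5.82% of all genes rose and 6.85% fell, with a median of -0.17 against -0.02. The gene that rose in both was PIK3R1, a regulatory subunit that stabilizes and restrains the catalytic subunit. It read 7.17 and 7.29 with P2, against 6.17 and 6.40 without, in p53-/- cells, and 7.11 and 6.95 with P2, against 6.43 and 6.31 without, in p53+/+ cells. The difference was 0.95 ± 0.12 (adjusted p 0.00119) in p53-/- cells and 0.66 ± 0.12 (adjusted p 0.0099) in p53+/+ cells, where the call was lost without P2 replicate 1 (0.0814) or untreated replicate 2 (0.0736). Median scaling ended the p53+/+ call on PIK3R1 as well. A dimmer PIK3R1 probe, detected on 4 arrays, gave -0.07 and 0.03. The catalytic subunit PIK3CB fell by 0.52 (adjusted p 0.0159, lost at 0.105 without P2 replicate 1 and 0.0516 without untreated replicate 2) and PIK3R4, of the class III complex, by 0.38 (adjusted p 0.0467) in p53-/- cells. The PIK3R4 call was lost without any 1 array other than untreated p53-/- replicate 2 (adjusted p 0.0613 to 0.232), and with the replicate block (0.0589). Leaving out 1 array gave a count of called subunit genes of 1 to 3 in p53-/- cells and 0 to 1 in p53+/+ cells. In p53+/+ cells PIK3CB gave -0.18 (adjusted p 0.381) and PIK3R4 -0.27 (adjusted p 0.186), and neither passed. PIK3CA was not analysed here.

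Brakes on this pathway included 2 genes that rose with P2 in both genotypes. INPP4B, a phosphatase that removes a PI3K lipid product, read 8.22 and 8.12 with P2, against 6.91 and 6.96 without, in p53-/- cells. On the p53+/+ arrays it read 8.24 and 8.07 with P2, against 6.72 and 6.79 without. Its difference was 1.23 ± 0.11 (adjusted p 0.000159) in p53-/- cells and 1.40 ± 0.11 (adjusted p 9.47e-05) in p53+/+ cells, and it held in each of 20 alternative settings. PHLDA3, a p53 target that competes with AKT for membrane lipid, rose by 1.16 ± 0.11 (adjusted p 0.000281) in p53-/- cells and by 0.75 ± 0.11 (adjusted p 0.00376) in p53+/+ cells, the second at an adjusted p of 0.0511 under median scaling. The AKT phosphatase PHLPP2 fell by 0.66 (adjusted p 0.00651) in p53-/- cells and by 0.58 (adjusted p 0.0201) in p53+/+ cells, where leaving out any of the 4 p53+/+ arrays ended the call (0.0594 to 0.132). The lipid phosphatase INPP5E fell by 0.59 (adjusted p 0.00439) in p53-/- cells and gave -0.32 (adjusted p 0.078) in p53+/+ cells. Of 14 tested brakes, 2 rose and 5 fell in p53-/- cells (median -0.06), against 10.4% and 14.5% of all genes. In p53+/+ cells 2 rose and 2 fell (median 0.07), against 5.82% and 6.85% of all genes. Without 1 array the number of genes called was 4 to 6 in p53-/- cells and 2 to 5 in p53+/+ cells.

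Among the channels and transporters that SGK1 is known to regulate, SCNN1A and SLC2A1 changed in both genotypes, in opposite directions. SCNN1A, the alpha subunit of the epithelial sodium channel that NEDD4L removes, read 10.65 and 10.63 with P2, against 9.43 and 9.24 without, in p53-/- cells. The p53+/+ arrays read 10.82 and 10.87 with P2, against 9.29 and 9.22 without. All P2 arrays lay above all untreated arrays. SCNN1A rose by 1.30 ± 0.11 (adjusted p 0.000126) in p53-/- cells and by 1.59 ± 0.11 (adjusted p 4.23e-05) in p53+/+ cells. SLC2A1, a glucose transporter whose surface level SGK1 raises, fell by 1.72 ± 0.11 (adjusted p 2.59e-05) in p53-/- cells and by 1.44 ± 0.11 (adjusted p 6.7e-05) in p53+/+ cells. It read 9.13 and 9.04 with P2, against 10.73 and 10.87 without, in p53-/- cells, and 9.49 and 9.47 with P2, against 10.87 and 10.98 without, in p53+/+ cells. The amino acid transporter SLC38A1 rose by 0.71 ± 0.11 (adjusted p 0.00319) in p53-/- cells and gave -0.15 ± 0.11 (adjusted p 0.447) in p53+/+ cells. The glucose cotransporter SLC5A1 was not detected on any P2 array and was tested only because the untreated arrays detected it. It was at least 1.29-fold lower with P2 in p53+/+ cells. The fitted p53+/+ difference was -0.47 (adjusted p 0.0438 in limma). It rests on P2 values below detection, so this call is read only as a description. The call was lost without any 1 array other than the untreated p53-/- arrays, and with the replicate block (0.0635). In p53-/- cells SLC5A1 was at least 1.18-fold lower with P2, and its fitted difference of -0.37 (adjusted p 0.0625) did not pass. Of 14 tested channels and transporters, 2 rose and 1 fell in p53-/- cells (median -0.08), against 10.4% and 14.5% of all genes. Among them 1 rose and 2 fell in p53+/+ cells (median -0.15), against 5.82% and 6.85% of all genes. The 2 that fell include SLC5A1, which was below detection with P2.

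**Figure D4:**
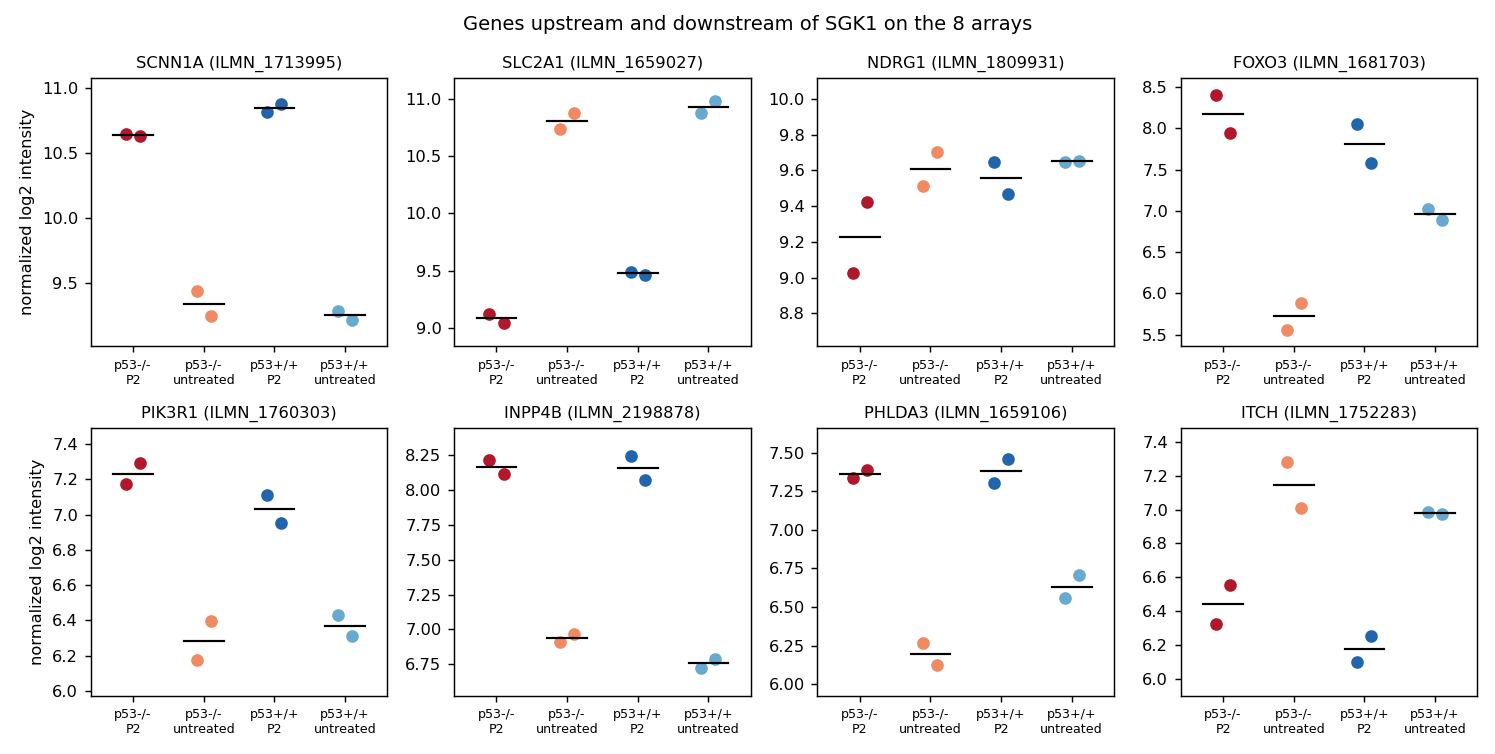
Normalized log2 intensity (y axis, with its own range in each panel) of 8 genes around SGK1 on each array, by group along the x axis. Points are arrays and lines are means of 2 arrays. SCNN1A, INPP4B, PHLDA3, PIK3R1 and FOXO3 are higher on P2 arrays in both genotypes, and SLC2A1 and ITCH are lower. NDRG1 differs by -0.38 in p53-/- and -0.10 in p53+/+ cells, and neither difference passed.

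Of 16 tested substrates of SGK1 and AKT, 4 rose and 1 fell in p53-/- cells (median -0.08), against 10.4% and 14.5% of all genes. Of the same 16, 1 rose and 1 fell in p53+/+ cells (median 0.03), against 5.82% and 6.85% of all genes. Without 1 array the number of genes called was 2 to 5 in p53-/- cells and 1 to 3 in p53+/+ cells. NDRG1, whose phosphorylation is the usual readout of SGK1 activity, read 9.03 and 9.43 with P2, against 9.51 and 9.71 without, in p53-/- cells. In p53+/+ cells it read 9.65 and 9.47 with P2, against 9.65 and 9.66 without. Its differences were -0.38 ± 0.15 (adjusted p 0.0883) and -0.10 ± 0.15 (adjusted p 0.724), so neither passed. The p53-/- value of NDRG1 passed with robust moderation on a variance trend, and without P2 replicate 2. FOXO3, a transcription factor that AKT and SGK1 hold in the cytoplasm, rose in both genotypes. It read 8.40 and 7.94 with P2, against 5.56 and 5.89 without, in p53-/- cells, and 8.05 and 7.58 with P2, against 7.02 and 6.89 without, in p53+/+ cells. The difference was 2.45 ± 0.20 (adjusted p 0.000117) in p53-/- cells and 0.86 ± 0.20 (adjusted p 0.0252) in p53+/+ cells. The p53-/- minus p53+/+ difference of FOXO3 in untreated cells was -1.23 ± 0.20 (adjusted p 0.0528), and the responses differed by 1.59 ± 0.28 (adjusted p 0.0762), neither of which passed. The p53+/+ call on FOXO3 was lost with cyclic loess, with no filter and with a 1.5-fold minimum. It was also lost without P2 replicate 1, untreated replicate 1 or untreated replicate 2 of that genotype. Leaving out any 1 array gave a p53+/+ difference of FOXO3 between 0.63 and 1.10.

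CREB1 and NDRG2, like FOXO3, read lower on both untreated p53-/- arrays than on both untreated p53+/+ arrays. CREB1, a transcription factor that AKT phosphorylates, rose by 1.62 ± 0.19 (adjusted p 0.00077) in p53-/- cells and gave 0.45 ± 0.19 (adjusted p 0.167) in p53+/+ cells. Its p53-/- minus p53+/+ difference in untreated cells was -1.07 ± 0.19 (adjusted p 0.0528). NDRG2 rose by 1.06 ± 0.32 (adjusted p 0.0376) in p53-/- cells and gave 0.02 ± 0.32 (adjusted p 0.982) in p53+/+ cells. NDRG2 read 5.91 on untreated p53-/- replicate 1 and 7.18 on replicate 2, and it belongs to the 215 probes lower on that array. Its call was lost without any 1 array other than untreated p53-/- replicate 2 (0.0561 to 0.152), and with the replicate block it had an adjusted p of 0.05, which did not pass. A second NDRG2 probe, detected on 5 arrays, gave 0.06 (adjusted p 0.821) in p53-/- cells, -0.03 (adjusted p 0.936) in p53+/+ cells and -0.05 (adjusted p 0.908) between the untreated genotypes. TBC1D4, an AKT substrate in glucose transporter traffic, fell by 0.38 ± 0.12 (adjusted p 0.0392) in p53-/- cells and by 0.88 ± 0.12 (adjusted p 0.0018) in p53+/+ cells. The p53-/- call on TBC1D4 was lost without any 1 array other than untreated p53-/- replicate 1 (0.058 to 0.178).

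Of 15 tested genes that FOXO factors are known to switch on when PI3K signalling is low, 3 rose and 2 fell in p53-/- cells (median 0.03), against 10.4% and 14.5% of all genes. In p53+/+ cells 2 rose and 1 fell (median 0.01), against 5.82% and 6.85% of all genes. Without 1 array the number of genes called was 1 to 5 in p53-/- cells and 1 to 3 in p53+/+ cells. FBXO32, a ubiquitin ligase subunit of muscle atrophy, rose by 0.86 ± 0.14 (adjusted p 0.00349) in p53-/- cells and by 0.88 ± 0.14 (adjusted p 0.00506) in p53+/+ cells, the second lost at 0.0521 without P2 replicate 1. A dimmer FBXO32 probe gave 0.21 and 0.27 and did not pass. SESN1, a p53 and FOXO target that restrains mTORC1, rose by 0.49 (adjusted p 0.0187) in p53-/- cells and by 0.59 (adjusted p 0.0154) in p53+/+ cells, with both SESN1 calls lost under median scaling (0.163 and 0.219). IRS2, the insulin receptor substrate, went the other way and fell by 0.53 (adjusted p 0.0117) in p53-/- cells and by 0.56 (adjusted p 0.0162) in p53+/+ cells. KLF15 fell by 0.57 (adjusted p 0.0149) in p53-/- cells and gave -0.12 (adjusted p 0.611) in p53+/+ cells. Leaving out single p53-/- arrays ended the p53-/- calls on SESN1 (P2 replicate 1 0.0531, P2 replicate 2 0.102, untreated replicate 2 0.0758), IRS2 (P2 replicate 1 0.0607, P2 replicate 2 0.0573) and KLF15 (P2 replicate 1 0.0623, P2 replicate 2 0.0791). Leaving out single p53+/+ arrays ended the p53+/+ calls on SESN1 (P2 replicate 2 0.105, untreated replicate 1 0.0807, untreated replicate 2 0.0872) and IRS2 (P2 replicate 1 0.12, untreated replicate 1 0.11, untreated replicate 2 0.0539).

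Of 8 tested relatives of NEDD4L and their adaptors, 0 rose and 4 fell in p53-/- cells (median -0.31), against 10.4% and 14.5% of all genes. In p53+/+ cells 0 rose and 1 fell (median -0.18), against 5.82% and 6.85% of all genes. The p53-/- count was lower, at 0 to 3, in each of the 20 alternative settings, and the p53+/+ count was 0 to 1 over them. ITCH, a ligase of the same family, fell in both. It read 6.32 and 6.55 with P2, against 7.28 and 7.01 without, in p53-/- cells, and 6.10 and 6.26 with P2, against 6.99 and 6.98 without, in p53+/+ cells. The ITCH difference was -0.71 ± 0.13 (adjusted p 0.00576) in p53-/- cells and -0.80 ± 0.13 (adjusted p 0.00574) in p53+/+ cells, lost without P2 replicate 1 of that genotype in each (0.0512 in p53-/- and 0.0557 in p53+/+ cells). SMURF1, which targets SMAD signalling, fell by 0.66 (adjusted p 0.0459), HECW2 by 0.45 (adjusted p 0.0445) and NEDD4, the closest relative of NEDD4L, by 0.36 (adjusted p 0.0473) in p53-/- cells. In p53+/+ cells SMURF1 gave 0.09 (adjusted p 0.816), HECW2 -0.40 (adjusted p 0.103) and NEDD4 -0.08 (adjusted p 0.69), and none passed. The SMURF1 call was lost without any 1 array other than P2 replicate 1 and untreated replicate 2 of p53-/- cells (0.0648 to 0.24). The HECW2 call was lost without any 1 array other than the untreated p53+/+ arrays (0.0541 to 0.216), and the NEDD4 call was lost without each of the 8 arrays (0.0557 to 0.217). The replicate block ended the HECW2 call (0.0624) and the NEDD4 call (0.0547). A dimmer NEDD4 probe gave 0.52 in p53-/- cells and did not pass (adjusted p 0.113), so the 2 NEDD4 probes differed in sign.

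Glucocorticoids are a main inducer of SGK1. Of 13 tested genes of the glucocorticoid receptor list, 0 rose and 2 fell in p53-/- cells (median -0.15), against 10.4% and 14.5% of all genes. In p53+/+ cells 0 rose and 0 fell (median -0.14), against 5.82% and 6.85% of all genes. The p53-/- count was 0 to 2 without 1 array. FKBP5, a strongly glucocorticoid-induced chaperone, read 8.61 and 8.73 with P2, against 8.64 and 8.76 without, in p53-/- cells. On the p53+/+ arrays it read 8.68 and 8.50 with P2, against 8.81 and 8.63 without. Its differences were -0.03 ± 0.12 (adjusted p 0.884) and -0.13 ± 0.12 (adjusted p 0.533). TSC22D3, also called GILZ, fell by 0.52 ± 0.14 (adjusted p 0.0241) in p53-/- cells and gave 0.00 ± 0.14 (adjusted p 0.992) in p53+/+ cells. A second TSC22D3 probe gave -0.21 (adjusted p 0.199) and -0.13 (adjusted p 0.497). The mineralocorticoid receptor NR3C2 fell by 0.43 ± 0.10 (adjusted p 0.0169) in p53-/- cells and gave -0.23 ± 0.10 (adjusted p 0.188) in p53+/+ cells. Leaving out single p53-/- arrays ended the TSC22D3 call (P2 replicate 1 0.0613, P2 replicate 2 0.129, untreated replicate 1 0.13) and the NR3C2 call (P2 replicate 1 0.0799, P2 replicate 2 0.0699). The NR3C2 call was also lost under median scaling. The glucocorticoid receptor NR3C1 lay at the edge of detection, at 4.63 to 4.85 on all arrays.

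**Figure D5:**
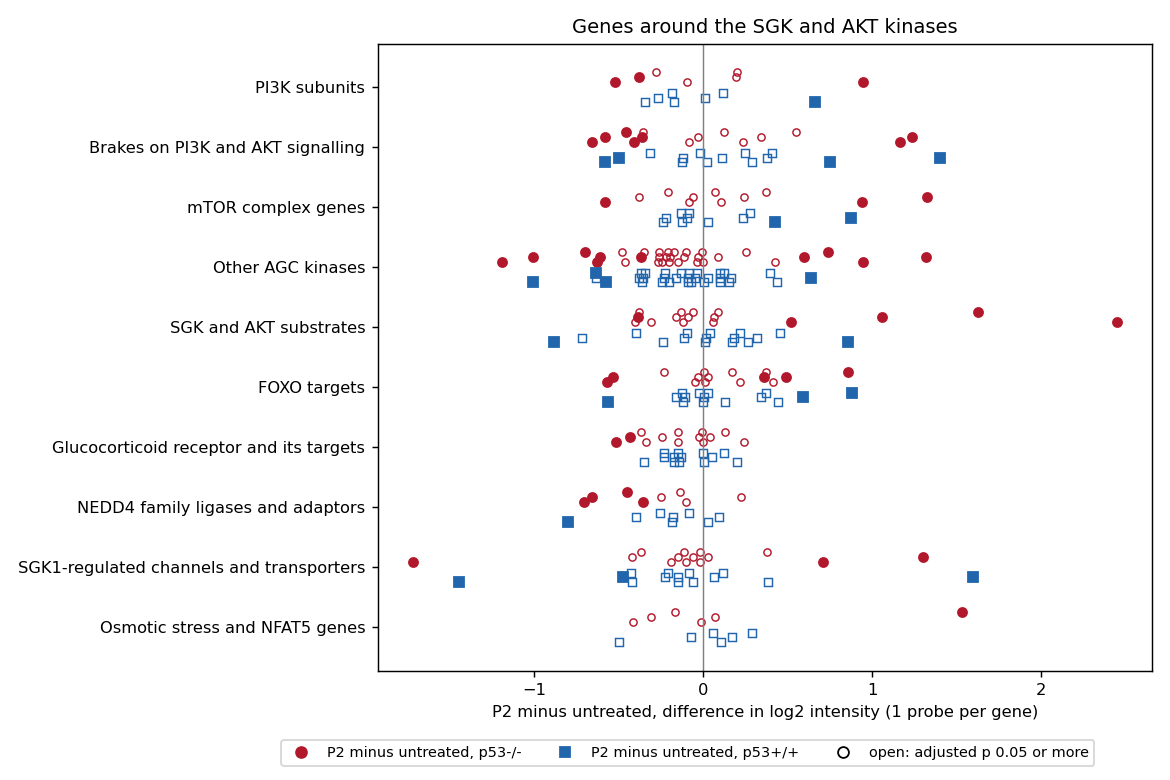
P2 minus untreated difference in log2 intensity (x axis) of each tested gene, 1 probe per gene, in 10 gene lists (rows) for p53-/- cells (circles) and p53+/+ cells (squares). Filled symbols have an adjusted p under 0.05, and points are spread vertically within a row only for legibility. Each list holds open symbols around 0, and the farthest points are FOXO3 at 2.45 in p53-/- cells and SLC2A1 at -1.72 in p53-/- cells.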

How the data were processed

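RNA of 8 HCT116 cultures or aliquots was measured on Illumina chips, and groups were taken from the sample titles. The deposited non-normalized table holds a scanner intensity per probe and array, with a detection p-value beside it, per the file headers. A second table of log2 values from the authors equals the quantile-normalized log2 intensities within 5.0e-09. GenomeStudio is named per the submitters' processing notes, and no version is given in the sources used here. The values here start from the intensities: normexp background from the detection p-values with an offset of 16, log2 and quantile normalization, in limma 3.58.1 and R 4.3.3. A probe was tested where 2 or more arrays had a detection p under 0.05, with 1 mean per group over all 8 arrays and limma's moderated two-sided test (4 residual and 5.15 prior degrees of freedom). Benjamini-Hochberg adjustment ran over the 14574 tested probes of each comparison, with a threshold of 0.05. The scripts were tested on simulated data.

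The genes of the set and all lists were chosen with earlier results of these data known. Named genes were all of the set, up to 4 genes per list with the largest P2 difference among those that passed with no overlap of arrays, and PIK3R1, RICTOR, NDRG1, FOXO3, NR3C1, TSC22D3, FKBP5, NEDD4 and SCNN1A. PIK3CA was also to be named but was not analysed here, and 1 further gene of the rule is not reported here. Lists were counted with the brightest tested probe per gene. For a gene detected on no array of a group, the fold is a lower bound against the lowest detected level. Probe levels were not compared between probes. With 2 arrays per group, their number limits the precision. Same-numbered arrays did not deviate together (correlations of -0.186 to 0.196), and the labels give the numbers no shared origin, so the number was used as a block only as an alternative. The alternatives were median scaling, no background correction, an offset of 50, cyclic loess, the authors' log2 values, no filter, a detection p under 0.01 on all arrays, a variance trend with robust moderation, array weights, the groups of a comparison alone, the replicate block, a minimum change of 1.5-fold and leaving out each array. Start windows from the RefSeq table were matched by symbol for 5 of the 7 genes (not SGK2 or SGK3).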

Additional observations from a re-analysis of the deposited data

Results flagged for a closer look

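SLC38A1, which encodes a sodium-coupled amino acid transporter, had P2 differences of opposite sign in the 2 genotypes: both P2 arrays lay above both untreated arrays in p53-/- cells and below both in p53+/+ cells. It read 8.02 and 7.92 with P2, against 7.24 and 7.28 without, in p53-/- cells, and 7.61 and 7.62 with P2, against 7.88 and 7.64 without, in p53+/+ cells. The p53-/- rise passed the test and the p53+/+ difference did not, with its nearest arrays at 7.62 and 7.64. SLC38A1 had been named for its p53-/- change, and the share of all probes with such a pattern was not counted. The p53-/- difference minus the p53+/+ difference was 0.86 ± 0.16 log2 units, with an adjusted p of 0.0777 in limma over all probes, which did not pass the threshold. A dimmer SLC38A1 probe, detected on 5 arrays, gave 0.14 in p53-/- cells and -0.01 in p53+/+ cells.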

How the results depend on the processing

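Over the tested probes of the set, 752 values were recomputed under alternatives, of which 667 kept their direction and side of the threshold, 34 lost and 8 gained a call, 43 uncalled values changed sign and 0 called values did. Of 1494 values of the named list genes, 1269 were kept, 201 lost and 6 gained a call, and 18 uncalled values changed sign. With an offset of 50 the SGK1 difference was -1.72 in p53-/- cells and -1.76 in p53+/+ cells, and without background correction or from the authors' log2 values it was -1.82 in p53+/+ cells. Leaving out 1 array gave -2.24 to -1.78 in p53-/- and -2.21 to -1.89 in p53+/+ cells. The count of probes other than SGK1 that changed in p53-/- cells was 1 in place of 3 with median scaling, cyclic loess, array weights or only the groups compared, 0 with a 1.5-fold minimum, 2 with the replicate block, and 1 to 3 without 1 array. It was 4, with NEDD4L added, without background correction, with an offset of 50, from the authors' log2 values, with the strict detection filter or with the variance trend. In p53+/+ cells it was 0 in place of 1 with the replicate block or the 1.5-fold minimum, and 0 to 1 without 1 array. For the difference in response it was 0, and 0 to 1 without 1 array. The 2 genotype comparisons gave 0 throughout. Beside NEDD4L and PDPK1, the block ended the calls on PIK3R4, NDRG2, HECW2 and NEDD4 in p53-/- cells and on MLST8 and SLC5A1 in p53+/+ cells, and changed no other call of the genes named. Median scaling moved the median of all probes to -0.12 in p53-/- and -0.107 in p53+/+ cells, against -0.04 and -0.01. It ended p53-/- calls on AKT1 (ILMN_2410909), PDPK1, PIK3R4, TBC1D4, SESN1, NR3C2, HECW2 and NEDD4. In p53+/+ cells it ended calls on PIK3R1, PHLDA3, SESN1, MLST8 and SLC5A1. Cyclic loess, no filter, array weights, only the groups compared and the 1.5-fold minimum ended further calls of the genes named, not all listed here. The causes were not tested. Among all tested probes, 266 to 4043 changed with P2 in p53-/- cells under the alternatives (3706 as reported) and 131 to 2301 in p53+/+ cells (1749), 0 to 973 differed in response (0), 0 to 1319 between untreated genotypes (10) and 0 to 58 between P2-treated genotypes (0). SGK2 and AKT2 lay too close to background for a fall to be measured.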

Other observations

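Other AGC kinases and the mTOR complexes were examined beside the set. Of 32 tested AGC kinases, 4 rose and 6 fell in p53-/- cells (median difference -0.20 log2 units), against 10.4% and 14.5% of all genes. Of the same 32, 1 rose and 3 fell in p53+/+ cells (median -0.09), against 5.82% and 6.85% of all genes. Without 1 array the number of genes called was 4 to 14 in p53-/- cells and 0 to 7 in p53+/+ cells. PRKACB, a catalytic subunit of protein kinase A, read 7.84 and 8.15 with P2, against 9.01 and 9.36 without, in p53-/- cells, and 8.14 and 8.11 with P2, against 9.27 and 8.99 without, in p53+/+ cells. It fell by 1.19 ± 0.16 (adjusted p 0.00138) in p53-/- cells and by 1.01 ± 0.16 (adjusted p 0.00461) in p53+/+ cells, the second lost at 0.0505 without untreated replicate 1. The other 2 tested PRKACB probes gave -0.92 (adjusted p 0.0091) and -0.59 (adjusted p 0.0115) in p53-/- cells, and -0.51 (adjusted p 0.121) and -0.41 (adjusted p 0.0714), which did not pass, in p53+/+ cells. CDC42BPA, a kinase that acts on the cytoskeleton below CDC42, fell by 1.01 ± 0.13 (adjusted p 0.00131) in p53-/- cells and by 0.58 ± 0.13 (adjusted p 0.0248) in p53+/+ cells, lost without any 1 of the 4 p53+/+ arrays (0.101 to 0.125). PKN2, a relative of protein kinase C, rose by 1.32 ± 0.18 (adjusted p 0.00139) in p53-/- cells and gave 0.15 (adjusted p 0.63) in p53+/+ cells. Its p53-/- minus p53+/+ difference in untreated cells was -0.77 (adjusted p 0.0756), which did not pass. RPS6KA4, a nuclear kinase below MAP kinases, rose by 0.95 ± 0.24 (adjusted p 0.021) in p53-/- cells and gave -0.13 (adjusted p 0.769) in p53+/+ cells, with an untreated genotype difference of -0.94 (adjusted p 0.094). Its call was lost without P2 replicate 1 (0.111), P2 replicate 2 (0.0772) or untreated replicate 1 (0.0659) of p53-/- cells.

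Of 11 tested mTOR complex genes, 2 rose and 1 fell in p53-/- cells (median 0.07), against 10.4% and 14.5% of all genes. In p53+/+ cells 2 rose and 0 fell (median -0.09), against 5.82% and 6.85% of all genes. Without 1 array the number of genes called was 1 to 3 in p53-/- cells and 0 to 2 in p53+/+ cells. DEPTOR, an inhibitor of both mTOR complexes, read 6.36 and 6.28 with P2, against 5.801 and 4.97 without, in p53-/- cells, and 6.26 and 6.27 with P2, against 5.49 and 5.29 without, in p53+/+ cells. It rose by 0.94 ± 0.22 (adjusted p 0.0157) in p53-/- cells, lost without P2 replicate 1 (0.0913) or 2 (0.0641), and by 0.87 ± 0.22 (adjusted p 0.0356) in p53+/+ cells, lost without any 1 array other than the untreated p53-/- arrays (0.0589 to 0.177). AKT1S1, also called PRAS40, an AKT substrate in mTORC1, rose by 1.32 ± 0.24 (adjusted p 0.00517) in p53-/- cells and gave 0.23 (adjusted p 0.584) in p53+/+ cells, and it was detected on 1 of the 2 untreated p53-/- arrays. It read 6.77 and 6.33 with P2, against 4.82 and 5.63 without, in p53-/- cells. The 4.82 was on untreated replicate 1, the array that stood apart, and lay below its lowest detected level, so this rise is only partly measured. RPTOR, the scaffold of mTORC1, fell by 0.58 ± 0.14 (adjusted p 0.0155) in p53-/- cells, lost without P2 replicate 1 (0.0827), P2 replicate 2 (0.0665) or untreated replicate 1 (0.0855). In p53+/+ cells RPTOR gave -0.24 (adjusted p 0.299). A second RPTOR probe, detected on all 8 arrays, gave 0.19 (adjusted p 0.311) in p53-/- cells, a sign opposite to the first probe. MLST8, shared by both complexes, rose by 0.43 ± 0.11 (adjusted p 0.0399) in p53+/+ cells, lost without any 1 array other than the untreated p53-/- arrays (0.0599 to 0.208), at 0.514 under median scaling and at 0.0558 with the replicate block. In p53-/- cells MLST8 gave 0.07 (adjusted p 0.7). RICTOR, the scaffold of mTORC2, lay near background and gave -0.21 (adjusted p 0.543) and -0.12 (adjusted p 0.778). Osmotic stress is a further inducer of SGK1, and of 6 tested genes of its response 1 rose and 0 fell in p53-/- cells, against 10.4% and 14.5% of all genes, and 0 rose and 0 fell in p53+/+ cells, against 5.82% and 6.85% of all genes. Under the alternatives 1 to 2 were called in p53-/- cells and 0 to 1 in p53+/+ cells. NFAT5, the transcription factor of this response, rose by 1.53 ± 0.21 (adjusted p 0.00148) in p53-/- cells and gave 0.29 (adjusted p 0.419) in p53+/+ cells, and a second NFAT5 probe gave 0.76 (adjusted p 0.0042) and 0.27 (adjusted p 0.22). The p53-/- minus p53+/+ difference in untreated cells was -0.81 (adjusted p 0.0956) on the first NFAT5 probe and -0.16 (adjusted p 0.55) on the second, and neither passed.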
